A study of Mus musculus with 2 samples.

Results

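The collagen-rich cells of the mouse yolk sac described here are 163 of the 775 yolk sac (YS) cells, or 21.0% (95% interval 18.2 to 24.1), and 163 of 2653 cells in the whole series. They were chosen by 2 collagen genes and 1 actin gene: a cell belonged when Col1a2 and Col3a1 together reached 500 CPM and Actg2 stayed under 100 CPM. CPM is the count of a gene per 1000000 UMIs of the cell, and a UMI (unique molecular identifier) marks a transcript captured in its droplet. The remaining 612 YS cells were 75 Actg2 cells, which had Actg2 at 100 CPM or more, and 537 cells below both thresholds. The collagen-rich cells were also split among themselves into 147 cells with at least 1 UMI of Upk3b or 2 of Krt19 (90.2%, 84.5 to 94.3), called Upk3b/Krt19 cells below, and 16 others.

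The YS library came from yolk sacs of C57BL/6 mouse embryos at E9.5 and E10.5, taken in equal numbers, pooled, dissociated with collagenase, frozen and thawed. Dead cells and about 70% of the Ter119-positive red cells were removed by sorting, so shares of cells are shares of what the sort left. A library of embryoid body (EB) cells, from C57BL/6 embryonic stem cells left to differentiate for 4 days in serum towards hemangiogenic mesoderm and also frozen, thawed and sorted for live cells, makes up the rest of the series. With 1 library of each kind there are no replicates and no test between groups, and the cells of the pool cannot be assigned to a stage. Intervals are 95% intervals for counting error only: exact Poisson for levels, exact Clopper-Pearson for shares and exact conditional binomial for ratios.

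The yolk sac wall has an outer layer of extraembryonic mesoderm that faces the exocoelom and an inner layer of visceral endoderm, with blood islands and vessels between them. The outermost mesodermal cells form a mesothelium, a flat epithelium that carries keratins together with mesenchymal proteins such as vimentin. Mesenchymal cells below it make the collagens, proteoglycans and glycoproteins of the wall, and some cells carry smooth muscle actins.

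The collagen-rich cells held 3737046 UMIs in all, with 6570 to 68315 UMIs per cell (median 21793) and a median of 4336 genes. The Actg2 cells had a median of 24928 UMIs and all other YS cells together one of 31608.5. The median mitochondrial share was 1.82% in the collagen-rich cells, 1.99% in the Actg2 cells and 1.91% in all other YS cells. Scrublet marked 2 of the 775 cells as doublets (0.258%, where 0.62% was expected) and 0 of the collagen-rich cells. Counts this small do not show how well the caller worked, and this was not checked. Among the collagen-rich cells 6 held 2 or more UMIs of Cdh5, Pecam1, Ptprc or Ttr at 100 CPM or more. These genes mark vessel, blood and endoderm cells. No barcode of a collagen-rich cell was also an EB cell (0 of 163), while 2 barcodes were shared between all YS and all EB cells. Among the collagen-rich cells 78 had UMIs of Y-linked genes alone, 69 had UMIs of Xist alone, 0 had both and 16 had neither, so cells of male and of female embryos are both among them.

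The values that chose the cells are a description and support nothing. The sum of Col1a2 and Col3a1 per collagen-rich cell was 605 CPM at the lowest, 2822 CPM at the median and 15118 CPM at the highest. Just inside the threshold the lowest cells had 605, 748 and 753 CPM, and just outside it the highest had 455, 455 and 348 CPM. Of the 537 cells below both thresholds 423 had no UMI of either collagen gene, and 14 of the 775 cells lay between 250 and 1000 CPM. The Actg2 threshold cut through a denser range. The highest collagen-rich cells had 98.9 and 94.0 CPM of Actg2, the lowest Actg2 cells 103 and 105 CPM, and 31 collagen-rich cells lay at 50 to 100 CPM against 23 Actg2 cells at 100 to 200 CPM. All 75 Actg2 cells were also above the collagen threshold. No EB cell met the rule (0 of 1878, which allows a share of up to 0.160%, taken as 3 of 1878), and the EB cells held 88 UMIs of Col1a2, 1 of Col3a1, 3 of Upk3b and 0 of Lum.

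**Figure D1:**
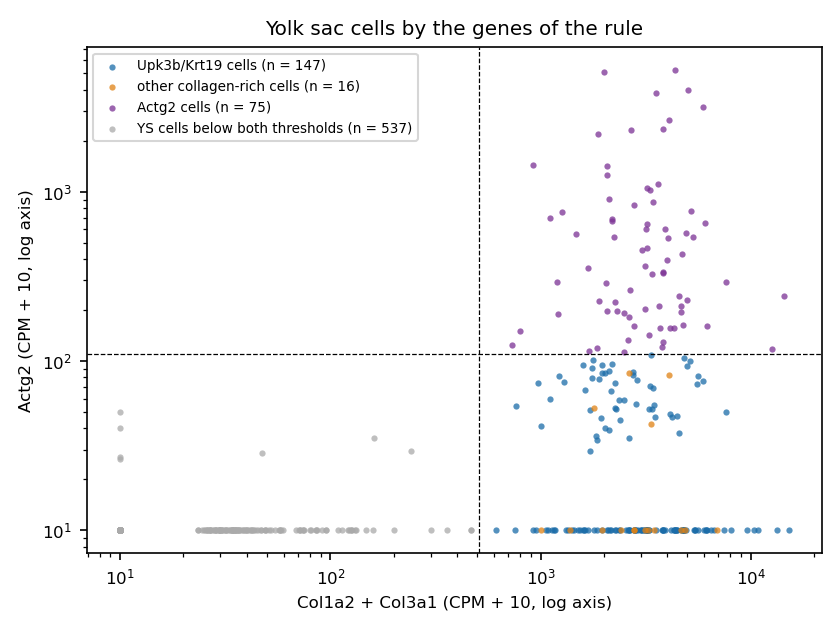
Each point is 1 YS cell, by the sum of Col1a2 and Col3a1 (horizontal) and Actg2 (vertical), both in CPM plus 10 on log axes, with dashed lines at the thresholds of 500 and 100 CPM. The collagen values leave a gap between 455 and 605 CPM, whereas Actg2 runs across its threshold without one.

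The label of mesothelial and mesenchymal cells came with the markers Col1a2, Col3a1, Lum and Upk3b, chosen with earlier results of these data known. Col1a2 and Col3a1 also formed the rule. The marker levels below therefore describe the label and give it no independent support. Lum, which encodes the proteoglycan lumican and was not used by the rule, was seen in 163 of 163 collagen-rich cells, at 110 CPM in the lowest, 2284 in the median and 24262 in the highest cell. In the Actg2 cells Lum was at 0 CPM in the lowest, 2264 in the median and 7332 in the highest cell, and in the cells below both thresholds it reached 123 CPM in the highest cell. Lum was thus high in nearly every cell above the collagen threshold, on both sides of the Actg2 threshold, and low or absent below it. Upk3b, a uroplakin that marks mesothelium, was seen in 86.5% of collagen-rich cells (80.3 to 91.3), 22.7% of Actg2 cells (13.8 to 33.8) and 2.42% of the cells below both thresholds (1.30 to 4.10). In erythroid cells, which should lack both genes, the shares were 16.9% for Lum and 1.30% for Upk3b at a median of 33226 UMIs. With each cell thinned to 6500 UMIs, Lum was seen in 100% of collagen-rich cells and 0.649% of erythroid cells, and Upk3b in 73.0% and 0%. All 141 collagen-rich cells with Upk3b also had Lum, 161 of 163 had both Krt8 and Vim, and 162 had both Krt18 and Col1a1. Keratin and mesenchymal genes were thus seen in the same cells. Because Lum, Vim and Col1a1 were each seen in every collagen-rich cell, these joint counts are only the counts of Upk3b, Krt8 and Krt18. Nor were keratins with Vim and Col1a1 particular to the collagen-rich cells. In Actg2 cells at 100 to 500 CPM of Actg2, Krt8 was seen in 95.3% and Krt18 in 100%. Above 500 CPM the shares were 90.6% and 87.5%, and Vim and Col1a1 were seen in 100% of cells in both bins.

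Of the 18 mesothelial markers listed, Msln, Muc16, Gpm6a and Aldh1a2 had 0 UMIs in the collagen-rich cells, where 3 UMIs, the level taken as the limit for a count of 0, would be 0.803 CPM. Wt1, the mesothelial transcription factor, had 8 UMIs in 7 cells (2.14 CPM). Of the 16 mesenchymal markers, Prrx1 and Dpt had 0 UMIs, and Thy1 had 2 UMIs in 1 cell. The names therefore rest on the uroplakins, the keratins and the matrix genes, and markers used for mesothelium and fibroblasts in other organs were absent or near 0. Defining markers of other cells were close to 0 as well, with Cdh5 at 0.268 CPM, Ptprc at 0.803 CPM and Ttr at 19 CPM, against 21.4, 16.1 and 771 CPM in the cells below both thresholds. The 12 erythroid markers summed to 334 CPM in the collagen-rich cells, 353.6 CPM in the Actg2 cells and 86300 CPM in all other YS cells together. The embryonic globin gene Hbb-y was seen in 95.1% of collagen-rich cells at a level of 159 CPM. It stood at 14890 CPM in the empty droplets, which held 54.2 UMIs each on average, and the part of free RNA in it was not tested.

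The promoters of 3 of the genes that mark these cells and of Acta2, the smooth muscle actin gene that runs on into the Actg2 cells, are shown. Col1a2 and Col3a1 separate the collagen-rich cells from the cells below both thresholds by the rule, and not from the Actg2 cells. Upk3b helped to form the split within the collagen-rich cells. Each is the 250 bases before the transcript start of the RefSeq entry (GRCm38.p6), on the gene's strand. Upk3b lies at chr5:136038246-136038495 (+), Col1a2 at chr6:4505368-4505617 (+), Col3a1 at chr1:45311288-45311537 (+) and Acta2 at chr19:34255374-34255623 (-).
Upk3b: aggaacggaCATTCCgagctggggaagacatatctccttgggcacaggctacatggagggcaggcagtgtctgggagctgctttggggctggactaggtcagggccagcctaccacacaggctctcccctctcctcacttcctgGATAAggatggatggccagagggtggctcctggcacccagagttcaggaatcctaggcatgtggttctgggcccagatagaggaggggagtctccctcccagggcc
Col1a2: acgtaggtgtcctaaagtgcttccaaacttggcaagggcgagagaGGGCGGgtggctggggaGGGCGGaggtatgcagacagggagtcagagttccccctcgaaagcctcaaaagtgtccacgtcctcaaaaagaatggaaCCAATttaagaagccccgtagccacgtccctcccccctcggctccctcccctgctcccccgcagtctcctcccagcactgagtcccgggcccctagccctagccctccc
Col3a1: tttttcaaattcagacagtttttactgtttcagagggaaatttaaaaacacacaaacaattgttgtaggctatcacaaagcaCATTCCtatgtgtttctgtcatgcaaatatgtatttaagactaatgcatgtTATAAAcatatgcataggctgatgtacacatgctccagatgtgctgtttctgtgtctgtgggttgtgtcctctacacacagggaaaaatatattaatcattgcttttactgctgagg
Acta2: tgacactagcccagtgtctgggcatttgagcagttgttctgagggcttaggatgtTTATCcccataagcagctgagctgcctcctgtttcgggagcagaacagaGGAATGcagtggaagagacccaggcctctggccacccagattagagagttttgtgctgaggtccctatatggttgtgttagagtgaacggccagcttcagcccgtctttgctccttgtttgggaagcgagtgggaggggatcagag
Capitals mark exact matches, on either strand, to 5 short motifs that do not overlap here. The TEAD motif was searched as CATTCC, the motif of GATA factors as GATAA, the CCAAT box by its own letters, the Sp1 motif as GGGCGG and the TATA box as TATAAA. Upk3b held the TEAD and GATA motifs, Col3a1 the TEAD motif and the TATA box, Acta2 the TEAD and GATA motifs on the opposite strand, and Col1a2 the CCAAT box once and the Sp1 motif in 2 places. Among 32851 RefSeq promoter windows of the same length, 12.6% held the TEAD motif, 22.6% the GATA motif, 33.8% the CCAAT box, 32.7% the Sp1 motif and 12.4% the TATA box. The matches are descriptions of the letters in these windows and not measured binding. The GENCODE M21 gene models start elsewhere for some of these genes: the gene Col1a2 spans chr6:4504814-4541544 and Acta2 chr19:34241090-34255590. The Col1a2 window therefore lies inside its GENCODE model, and the Acta2 window spans the 5′ end of its model.

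The first comparison asked what sets the collagen-rich cells apart from all other YS cells. They had more of nearly every collagen, proteoglycan and collagen-processing gene on the lists, more mesothelial and extraembryonic mesoderm genes, and less of the blood, endothelial and endoderm genes. A gene was compared when both groups together had at least 30 UMIs, and counted as higher or lower from a 2-fold ratio of the summed CPM. Of 11660 genes compared, 2136 were at least 2-fold higher (18.3%) and 1874 at least 2-fold lower (16.1%), with a median log2 ratio of 0.06. The 612 other cells include the Actg2 cells, which share most of these genes, so the ratios understate the distance to the 537 cells below both thresholds.

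All 13 fibrillar and associated collagen genes compared were at least 2-fold higher (median log2 ratio 3.18), 2 of them by the rule. Col14a1, one of the 13, turned to a log2 ratio of -0.25 once each cell was thinned to 6500 UMIs. Col1a1, the other chain of type I collagen, was at 2842 CPM in collagen-rich cells and 255 CPM in other YS cells (11.1-fold, 10.8 to 11.5). Per cell Col1a1 was at 199 CPM in the lowest, 2414 in the median and 19833 in the highest collagen-rich cell, against 105, 2780 and 11210 CPM in Actg2 cells and 0, 0 and 455 CPM in the cells below both thresholds. The values of collagen-rich cells and Actg2 cells thus overlapped over most of their range. Col11a1 and Col9a1, minor chains best known from cartilage, were at 170 against 9.44 CPM (18.1-fold, 15.3 to 21.3) and 112 against 6.02 CPM (18.6-fold, 15.2 to 23.0).

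All 20 collagen assembly genes compared were at least 2-fold higher (median log2 ratio 2.47). Serpinh1, the collagen chaperone HSP47, reached 5077 CPM in collagen-rich cells and 508 CPM in other YS cells (10.0-fold, 9.76 to 10.2), and its lowest collagen-rich cell had 1771 CPM. Plod2, a lysyl hydroxylase, was 12.2-fold higher (260 against 21.3 CPM) and P4ha2, a subunit of prolyl hydroxylase, 11.4-fold higher (263 against 23.0 CPM). Ppib, a prolyl isomerase that all secretory cells use, was 2.72-fold higher (900 against 331 CPM), near the low end of the list.

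Of 19 proteoglycan and glycoprotein genes compared 18 were at least 2-fold higher. Dcn, the proteoglycan decorin, was at 563 CPM in collagen-rich cells and 40.8 CPM in other YS cells (13.8-fold, 12.7 to 15.0), and Postn, the matrix protein periostin, at 589 and 47.7 CPM (12.3-fold). Tnc, the glycoprotein tenascin C, was 18.0-fold higher (49.2 against 2.74 CPM). Of 17 basement membrane genes 15 were at least 2-fold higher and 0 lower, led by Col4a5 (17.4-fold, 29.7 against 1.71 CPM) and Lama5 (9.87-fold, 22.2 against 2.25 CPM). Matrix breakdown genes went the same way, with 11 of 13 at least 2-fold higher, among them the inhibitor Timp1 (11.5-fold, 81.9 against 7.14 CPM) and the protease Mmp14 (3.42-fold, 67.2 against 19.7 CPM).

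Of the 12 mesothelial markers compared 11 were at least 2-fold higher. Upk3b was at 315 CPM in collagen-rich cells and 3.67 CPM in other YS cells (85.8-fold, 67.9 to 110), the first of the 12 genes of largest ratio. Upk1b, a tetraspanin that pairs with uroplakins, was 42.1-fold higher (98.7 against 2.35 CPM). Krt8, the keratin of simple epithelia, was 9.70-fold higher (1031 against 106 CPM). The epithelial junction list was mixed, with 10 of 18 genes at least 2-fold higher and 5 lower. Crb2, a polarity protein, was 19.3-fold higher (48.2 against 2.49 CPM), Dsp, the desmosomal protein desmoplakin, 9.40-fold (44.2 against 4.70 CPM) and Cdh3, P-cadherin, 8.68-fold (53.5 against 6.16 CPM), whereas Cdh1, E-cadherin, had 0 UMIs in the collagen-rich cells.

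Further genes of largest ratio were Smoc2, a secreted calcium-binding matrix protein (48.7-fold, 39.0 to 61.5, 207 against 4.25 CPM), and Igfbp2, which binds insulin-like growth factors (23.1-fold, 472 against 20.4 CPM). Slc27a3, a fatty acid transport family protein, was 18.8-fold higher and Colec11, a secreted collectin, 17.5-fold. Wfdc2 (16.7-fold), Tmem108 (15.5-fold), the laminin receptor Bcam (15.3-fold), the matricellular Wisp1 (14.04-fold) and Angptl6 (13.9-fold) completed the 12 of largest ratio. At the low end, 10 of the 12 genes with the largest ratios were globins or other genes of red cells, and the other two were Mt2, a metallothionein, and C1qb, a complement gene of macrophages. All 12 hematopoietic markers compared were at least 2-fold lower, and so were all 12 endoderm markers. Endothelial markers were lower in 10 of 12, and Egfl7 was one of the others, with a like level (145 against 133 CPM, 1.09-fold, 0.995 to 1.20).

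Among 26 mesoderm transcription factors compared 14 were at least 2-fold higher and 3 lower. Hand1, a factor of extraembryonic and lateral mesoderm, was at 425 CPM in collagen-rich cells and 40.3 CPM in other YS cells (10.54-fold, 9.69 to 11.5), Foxf1 at 245 and 25.2 CPM (9.72-fold), Tbx20 at 212 and 23.3 CPM (9.10-fold) and Foxf2 at 45.2 and 3.23 CPM (14.01-fold). Hand1 was at 0 CPM in the lowest, 381 in the median and 1817 in the highest collagen-rich cell, and at 0, 0 and 363 CPM in the cells below both thresholds. Of the 12 genes of allantois and extraembryonic mesoderm, 8 could be compared, of which 7 were at least 2-fold higher and 1 lower (median log2 ratio 3.09). The factors of the hindgut end of the embryo on that list were not seen, with 0 UMIs of Hoxa13, Hoxa11, Hoxa10 and Cdx2, while Hoxa10 was at 8.88 CPM and Hoxa11 at 4.44 CPM in the Actg2 cells.

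Secreted signals were mostly higher, 24 of 30 genes compared, with 2 lower. Gas6, the ligand of TAM receptors, was 11.6-fold higher (149 against 12.9 CPM), Bmp5 13.5-fold (35.6 against 2.64 CPM), Bmp4 8.42-fold (101 against 11.98 CPM) and the axon guidance ligand Slit3 9.43-fold (35.1 against 3.72 CPM). Midkine, Mdk, was at 958 CPM against 234 CPM. Ligands that act on blood progenitors were present at lower counts, with Cxcl12 at 44.96 against 6.505 CPM, Kitl at 15.5 against 2.40 CPM and Csf1 at 12.6 against 1.42 CPM. Tgfb1 was the clearest exception and 6.79-fold lower (18.5 against 125 CPM). Of 30 receptors 21 were higher and 2 lower, with the Wnt receptor Fzd2 at 131 against 13.6 CPM and the TGF-beta coreceptor Tgfbr3 at 54.6 against 8.85 CPM, while the integrin Itga6 was 5.63-fold lower.

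Imprinted growth genes were higher in 11 of 14, with a median log2 ratio of 2.07. Mest, Dlk1, H19, Meg3 and Igf2 stood at 2408, 2203, 1888, 1761 and 716 CPM in collagen-rich cells, against 360, 254, 445, 241 and 97.0 CPM in other YS cells. Meg3 was not seen in every collagen-rich cell (92.0%), whereas Dlk1, Mest and H19 were. S phase and G2 genes did not separate the groups, with 0 of 16 and 0 of 16 genes at least 2-fold apart in either direction. Of 16 immediate early and heat shock genes 4 were higher and 0 lower, and of 11 smooth muscle markers 4 were higher and 2 lower, Actg2 among the lower by the rule. Retinoic acid genes were 2 higher and 4 lower of 11.

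**Figure D2:**
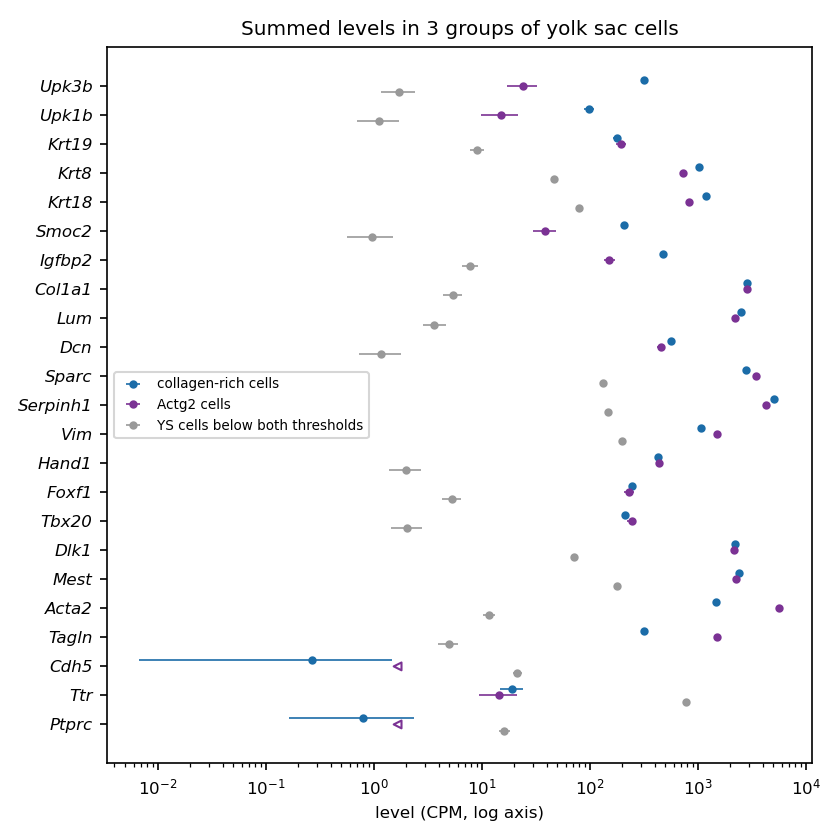
Summed level (CPM, log axis) of 23 genes in collagen-rich cells, Actg2 cells and YS cells below both thresholds, with 95% Poisson intervals, and an open triangle at the level of 3 UMIs where the count was 0. Matrix and mesoderm genes lie together in the first 2 groups, Upk3b, Upk1b and Smoc2 are highest in collagen-rich cells, and Acta2 and Tagln are highest in Actg2 cells.

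The second comparison set the collagen-rich cells against the 75 Actg2 cells, the group most like them. Most genes of the matrix and mesoderm lists lay within 2-fold, 6 of 11 mesothelial markers were higher and 9 of 11 smooth muscle markers lower. Of 8589 genes compared, 277 were at least 2-fold higher (3.23%) and 379 at least 2-fold lower in the collagen-rich cells (4.41%), with a median log2 ratio of -0.04. None of the 12 mesenchymal, 7 allantois and extraembryonic mesoderm or 16 S phase genes compared was 2-fold apart, and 1 of 20 collagen assembly genes was. Of 13 fibrillar and associated collagens 1 was higher and 4 lower, of 15 basement membrane genes 3 were higher and 3 lower, of 19 proteoglycan and glycoprotein genes 1 was higher and 1 lower, and of 12 matrix breakdown genes 0 were higher and 2 lower. Col1a1 was at 2842 CPM in collagen-rich cells and 2837 CPM in Actg2 cells, Lum at 2502 and 2198 CPM, Hand1 at 425 and 437 CPM, and Dlk1 at 2203 and 2145 CPM.

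Mesothelial markers were higher in 6 of 11 and lower in 0 (median log2 ratio 1.31). Upk3b was at 0 CPM in the lowest, 250 in the median and 2288 in the highest collagen-rich cell, and at 0, 0 and 329 CPM in Actg2 cells. Summed, that was 315 against 23.9 CPM (13.2-fold, 9.73 to 18.3), and the highest Actg2 cells overlapped the middle of the collagen-rich cells. Upk1b was 6.59-fold higher (4.45 to 10.1, 98.7 against 15.0 CPM) and Bnc1, a basonuclin of mesothelium and keratinocytes, was at 18.7 against 3.89 CPM. Not all epithelial genes followed. Krt19 lay at a like summed level in both groups (179 against 195 CPM, 0.915-fold, 0.803 to 1.04), and Krt8 and Krt18 differed by less than 1.5-fold (1031 against 723 CPM and 1178 against 834 CPM). Within the Actg2 cells, however, Krt19 was at 125 CPM (104 to 148) at 100 to 500 CPM of Actg2 and 288 CPM (252 to 328) above 500 CPM. Podxl, a sialomucin of the free surface of epithelia, was 7.69-fold higher (4.89 to 12.8, 85.4 against 11.1 CPM), and the polarity gene Pard6b 4.24-fold (23.5 against 5.55 CPM).

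Smoc2 was 5.41-fold higher (4.22 to 7.02) and the carbonic anhydrase gene Car4 4.11-fold higher (3.32 to 5.14, 217 against 52.7 CPM). Id3, an inhibitor of bHLH factors, was 3.66-fold higher (124 against 33.9 CPM) and Igfbp2 3.11-fold (472 against 152 CPM). Fos was 2.57-fold higher (324 against 126 CPM). With Actg2 under 50 CPM as the limit, 12 of the 12 genes of largest ratio on the high side kept their direction and 7 were still 2-fold higher. Among them the log2 ratio of Upk3b was then 1.61, of Smoc2 1.19 and of Car4 1.19, while Fos, at 0.60, was no longer 2-fold higher. Fos belongs to the immediate early genes, which dissociation and handling can raise. Within that list 3 of 16 genes were at least 2-fold higher and 0 lower, Egr1 was at 166 against 93.8 CPM, and the part of handling was not tested.

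Smooth muscle markers were lower in 9 of 11, Actg2 among them by the rule, with a median log2 ratio of -2.26. Acta2 was at 0 CPM in the lowest, 1041 in the median and 10195 in the highest collagen-rich cell, and at 736, 4202 and 19256 CPM in Actg2 cells. The ranges overlapped widely, and the summed level was 1485 against 5604 CPM (3.77-fold lower, 3.65 to 3.90). Tagln, the actin-binding transgelin, was 4.78-fold lower (316 against 1510 CPM), Myl9, a myosin light chain, 3.98-fold lower (252 against 1003 CPM) and Des, the intermediate filament desmin, 7.21-fold lower (16.3 against 118 CPM). Actc1, the cardiac actin, was 157-fold lower (60.8 to 580, 1.07 against 168 CPM), but only 17 of the 75 Actg2 cells had it. Markers of mature smooth muscle were low in both groups, with Cnn1 at 0.535 against 27.2 CPM and Myh11 at 0.268 against 8.88 CPM.

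Some matrix and signalling genes were also lower in the collagen-rich cells. Among 13 fibrillar and associated collagens 4 were lower, Col14a1 (3.57-fold, 23.8 against 84.9 CPM) and the 3 type VI chains Col6a1 (28.9 against 69.9 CPM), Col6a2 (9.90 against 34.4 CPM) and Col6a3 (37.7 against 77.2 CPM). The proteoglycan biglycan, Bgn, was 3.77-fold lower (48.2 against 182 CPM). Snai2 (54.6 against 134 CPM) and Zeb2 (36.7 against 125 CPM), factors of the epithelial to mesenchymal transition, and Tgfb2 (33.4 against 81.1 CPM) were 2.46-fold, 3.42-fold and 2.42-fold lower. The imprinted cell cycle inhibitor Cdkn1c was 2.54-fold lower (393 against 999.8 CPM). By list, 3 of 19 mesoderm transcription factors and 3 of 26 receptors were lower and 0 higher, 2 of 14 imprinted genes were lower and 0 higher, and secreted signals were split, with 4 of 27 higher and 5 lower. Among the higher signals, Kitl, the ligand of the blood progenitor receptor Kit, was at 15.5 against 3.33 CPM and Vegfa, the endothelial growth factor, at 32.4 against 14.4 CPM.

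Binning all 238 cells above the collagen threshold by Actg2, with bins chosen after values had been seen, shows how these genes ran across the threshold. Upk3b was at 351 CPM in the 105 cells with no Actg2 UMI, 268 CPM in the 58 with some but under 100 CPM, 31.4 CPM in the 43 at 100 to 500 CPM and 14.1 CPM in the 32 above 500 CPM. Acta2 ran the other way, at 1191, 1861, 3275 and 8644 CPM, and Lum was at 2734, 2206, 2398 and 1938 CPM. Krt19 was at 173, 186, 125 and 288 CPM, highest in the last bin. The step in Upk3b lay close to the threshold: it was at 284 CPM in the 31 cells at 50 to 100 CPM of Actg2 (249 to 323) and 51.1 CPM in the 23 cells at 100 to 200 CPM (33.9 to 73.8). Median depth was 27956 and 26194 UMIs in those bins. Acta2 was at 1755 and 2743 CPM in the same bins.

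**Figure D3:**
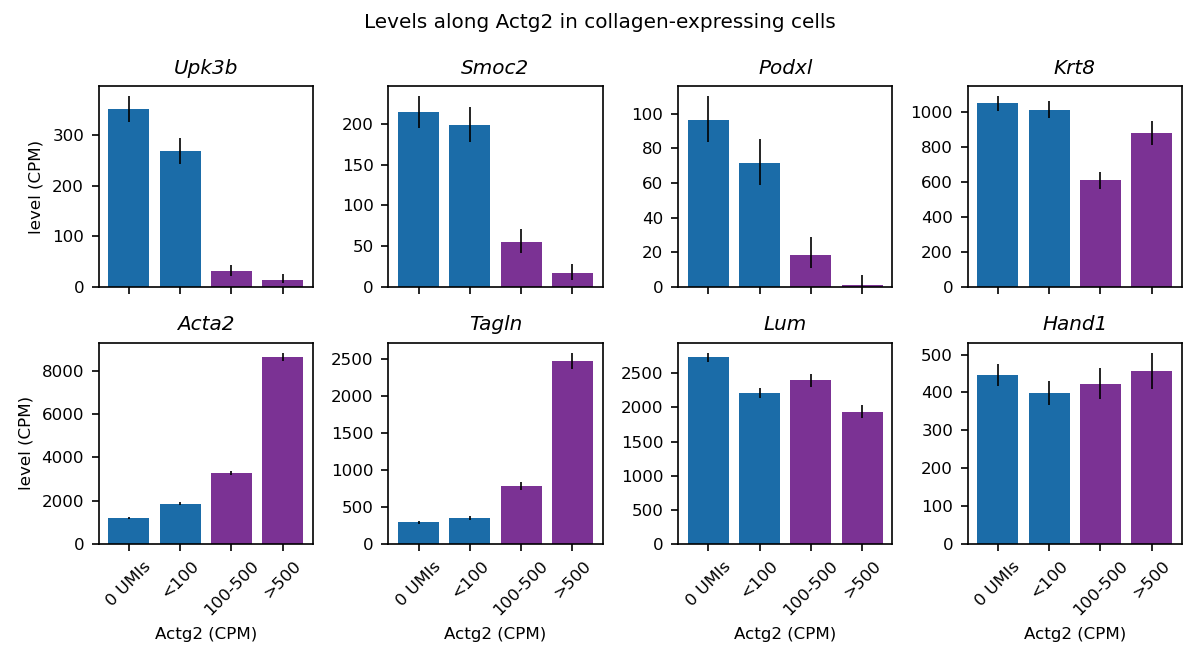
Summed levels (CPM) of 8 genes in cells above the collagen threshold, binned by Actg2, with 95% Poisson intervals (n = 105, 58, 43 and 32 cells from left to right; the first 2 bins are collagen-rich cells, the others Actg2 cells). Upk3b, Smoc2 and Podxl drop at the third bin, Acta2 and Tagln climb, and Hand1 stays between 398 and 456 CPM.

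The third comparison was within the collagen-rich cells, between the 147 Upk3b/Krt19 cells and the 16 others. Of the 147, 141 met the rule by Upk3b and 6 by Krt19 alone, and 8 of them rested on a single Upk3b UMI. Of the 16 others 8 had 1 Krt19 UMI and 8 had none, and none had Upk3b by the rule. The others were shallower, with a median of 14559 UMIs against 22267 UMIs, and a shallower cell is more likely to miss a UMI. With every cell thinned to 6500 UMIs before the split, 77.3% of the collagen-rich cells met it. Both groups had cells of either sex: 73 Upk3b/Krt19 cells had Y-linked UMIs and 63 Xist, against 5 and 6 of the others.

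In the Upk3b/Krt19 cells 5 of 11 mesothelial markers and 4 of 11 epithelial junction genes were at least 2-fold higher, and 4 of 8 smooth muscle markers and 2 of 12 mesenchymal markers at least 2-fold lower. Of 7595 genes compared, 744 were at least 2-fold higher (9.8%) and 365 at least 2-fold lower (4.81%), with a median log2 ratio of 0.03. From 10 UMIs in place of 30 the counts were 850 and 1221. At that minimum a gene with 0 UMIs in the others, set to 3 UMIs, stands at 10.2 CPM. It can then count as 2-fold lower though it was seen only in the Upk3b/Krt19 cells. How many of the 1221 are such genes was not counted, so the turned balance says nothing about the genes. Of 12 fibrillar and associated collagens 2 were higher and 0 lower. Col1a1 was at 2848 CPM in Upk3b/Krt19 cells and 2771 CPM in the others, and Lum at 2523 and 2259 CPM (1.12-fold, 1.03 to 1.21). Col11a1 was 2.95-fold higher (180 against 61.0 CPM).

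Smoc2 was 16.5-fold higher (6.42 to 60.8). It was at 0 CPM in the lowest, 188 in the median and 887 in the highest Upk3b/Krt19 cell, and seen in 2 of the 16 others, at up to 267 CPM. Upk1b was 7.83-fold higher (3.03 to 28.9, 106 against 13.6 CPM), Gas6 5.89-fold (2.97 to 13.7, 160 against 27.1 CPM) and Car4 4.88-fold (2.89 to 8.97, 232 against 47.4 CPM). Upk3b and Krt19 were higher by the rule and are 2 of the 5 of 11 mesothelial markers at least 2-fold higher, while Nkain4 was the 1 lower (16.6 against 50.8 CPM) and turned without the 2 cells named below (log2 ratio 1.91). Of 11 epithelial junction genes 4 were higher and 1 lower. Podxl was 5.39-fold higher (2.28 to 16.7, 91.2 against 16.9 CPM), Tjp1, the tight junction protein ZO-1, 5.00-fold (1.68 to 24.5) and Dsp 4.63-fold (1.56 to 22.7), each from 3 to 5 UMIs in the others. Krt8 was at 1065 against 630 CPM and Krt18 at 1212 against 779 CPM, under 2-fold.

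Smooth muscle markers were lower in 4 of 8 and higher in 1. Tagln was 2.55-fold lower (281 against 718 CPM), Myl9 2.59-fold (224 against 579 CPM) and Tpm2, a tropomyosin, 2.76-fold (113 against 312 CPM), and Acta2 1.92-fold (1385 against 2652 CPM). The median cell had 1025 CPM of Acta2 among the Upk3b/Krt19 cells and 1098 CPM among the others, and the highest had 5631 and 10195 CPM, so the gap in the summed level of Acta2 came from its highest cells. Of the mesenchymal list Tcf21, a factor of mesothelium-derived fibroblasts, was 3.28-fold lower (27.9 against 91.5 CPM) and Pdgfra, the PDGF receptor of mesenchyme, 3.18-fold lower (16.0 against 50.8 CPM), and the other 10 were within 2-fold. Lgals1, the lectin galectin-1, was 4.76-fold lower (4.36 to 5.19, 523 against 2490 CPM). It was at 0 CPM in the lowest, 399 in the median and 6448 in the highest Upk3b/Krt19 cell, and at 0, 1714 and 6768 CPM in the others, so the ranges overlapped fully. Cdkn1c was 3.07-fold lower (338 against 1037 CPM), Phlda2 4.06-fold and Grb10 3.50-fold, the 3 of 14 imprinted genes that were 2-fold apart. Phlda2 turned to a log2 ratio of 1.97 with the higher UMI minimum per cell.

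Part of this difference came from 2 of the 16 cells, with 32077 and 35999 UMIs, found after values had been seen. They held 100% of the Fst UMIs of the 16 cells, 93.1% of Wnt4, 87.3% of Fabp5, 85.7% of Nrk, 83.7% of Csrp2 and 71.8% of Pitx1. Without them, 8 of the 12 genes of largest ratio on the low side were still at least 2-fold lower in the Upk3b/Krt19 cells and 9 kept their direction. Lgals1 stayed lower by 1.68 on the log2 scale, at -1.68, with Emp3 at -2.16, Phlda2 at -2.40 and Tcf21 at -2.09, and Tagln was at -1.33. Csrp2, Fabp5, S100a6 and Wnt4 turned to log2 ratios of 0.28, 0.41, 0.36 and 0.36, and Nrk was at -0.37, against -2.80 with all 16 cells. When the split was made after thinning, 3 of the 12 genes of largest ratio on the high side and 6 of the 12 on the low side were still 2-fold apart, and 12 of 12 on either side kept their direction.

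The collagen-rich cells were also binned by Upk3b, which formed the groups: the 22 cells with no Upk3b UMI are the 16 other cells and the 6 that met the rule by Krt19 alone. These values describe the same split on a finer scale and give it no support. Smoc2 was at 37.3 CPM in the 22 cells with no Upk3b UMI, 181 CPM in the 71 cells under 300 CPM and 277 CPM in the 70 cells above. Pdgfra was at 39.4, 21.6 and 10.4 CPM, Lgals1 at 1705, 555 and 501 CPM, and Acta2 at 2613, 1274 and 1357 CPM. Of the cells with Upk3b, 34 also had Pdgfra. Median depth was 21910.5, 20593 and 22445.5 UMIs in the 3 bins, the middle bin being the lowest.

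**Figure D4:**
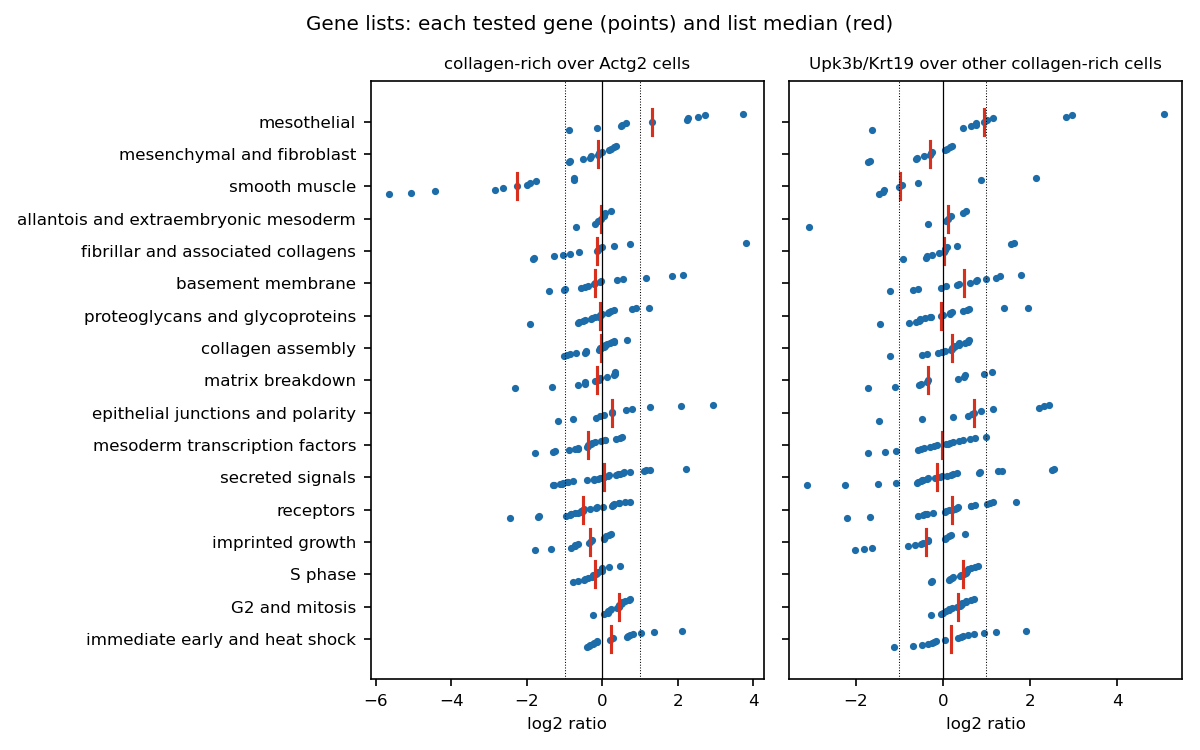
Log2 ratio of every gene compared in 17 gene lists (points) with the list median (red bar), for collagen-rich over Actg2 cells (left) and for Upk3b/Krt19 over other collagen-rich cells (right), with dotted lines at 2-fold. Actg2 on the left and Upk3b and Krt19 on the right were used to form the groups. Mesothelial medians lie above 0 (1.31 and 0.94) and smooth muscle medians below 0 (-2.26 and -0.98) in both panels.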

How the data were processed

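Droplet (10x Genomics) RNA sequencing of 1 YS and 1 EB library gave, as deposited, raw UMI counts for 33456 genes and 737280 barcodes per library, not filtered to cells. The build was mm10, per the submitters' processing notes. Which aligner, counting program and annotation were used was not given in the sources used here. A barcode was a cell from 6537 UMIs in YS and 6172 in EB (10% of percentile 99 among the 3000 largest totals) with at most 10% mitochondrial UMIs, which kept 775 of 801 and 1878 of 2020. The YS library held 30294678 UMIs and the EB library 73915225. No cell was removed as a doublet. Counts were summed per group and scaled to CPM, and genes with at least 30 UMIs were compared, with no test for want of replicates. The 95% intervals assume Poisson counts and leave out variation between cells, embryos and libraries. A count of 0 was set to 3 UMIs for ratios, written as at least. Erythroid cells are the 154 with at least 50000 CPM of Hbb-y, Hbb-bh1 and Hba-x. Empty droplets are barcodes of rank 10001 to 50000.

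The members, gene lists and comparisons were chosen with earlier results of these data known. The text names, per comparison and direction, the 12 top genes by ratio that reach 100 CPM and 30 UMIs in the group where they are higher (gene models without a name, ribosomal and mitochondrial genes left out), up to 3 genes from either end of each list from 20 CPM, and those of the rule. Genes named outside it (absent markers, ligands of blood progenitors, the genes of the 2 cells, and values given for genes named elsewhere) were chosen after their values were seen. Python 3.11.15, numpy 2.4.6, scipy 1.17.1 and scanpy 1.11.5 (Scrublet) were used. The ratio intervals were tested on simulated Poisson counts only. These lack the variation between cells, so the test checks the code and not the coverage in these data. Alternatives changed the UMI, mitochondrial, collagen and Actg2 limits, the count minimum, the scaling and the depth.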

Additional observations from a re-analysis of the deposited data

Results flagged for a closer look

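Below the UMI minimum, 104 YS barcodes had 1000 UMIs or more and at most 10% mitochondrial UMIs, and 20 of them met the collagen and Actg2 thresholds, a signal outside the cells analysed. Their median was 3001.5 UMIs, and 8 of the 20 had Upk3b (40%). At such depth a few UMIs decide the rule. A further 74 barcodes met it at a higher mitochondrial share, while 0 of the 26 barcodes above the UMI minimum that failed the mitochondrial limit did.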

How the results depend on the processing

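No paired analysis was possible because each group comes from 1 library and no test was made. The share of YS cells that are collagen-rich was 17.0% with Actg2 under 50 CPM, and Upk3b/Krt19 cells were 77.3% of the collagen-rich cells when each cell was thinned before the split. Counts of genes at least 2-fold higher and lower moved as follows, by over 1.5 times in 1 direction at least. Against Actg2 cells they were 160 and 245 with Actg2 under 50 CPM, 623 and 760 from 10 UMIs, 90 and 150 from 100 UMIs and 166 and 173 after thinning to 6500 UMIs. Against all other YS cells they were 1192 and 1174 after thinning, and 1234 were lower from 100 UMIs. Within the collagen-rich cells 850 were higher and 1221 lower from 10 UMIs, which turns the balance, and the counts were 214 and 98 from 100 UMIs, 435 and 165 after thinning and 247 and 94 with the thinned split. With Actg2 under 50 CPM, 7 of the 12 genes of largest ratio on the high side against Actg2 cells were still 2-fold higher. After the thinned split 3 of the 12 genes of largest ratio on the high side and 6 of the 12 on the low side were still 2-fold apart. A higher UMI minimum or thinning leaves fewer genes to compare, and the cause of the other moves was not tested.

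Log2 ratios that turned were, within the collagen-rich cells, Notch2 (-0.39 with the lower UMI minimum per cell, -0.43 with the thinned split), Phlda2 (1.97 with the higher one), Bmp1 (0.26), Ddr1 (-0.0297), Dusp1 (0.80) and Tgfbr1 (-0.46) after thinning, Nkain4 (0.082 with the thinned split), and, without the 2 cells, Csrp2 (0.28), Dusp1 (1.00), Fabp5 (0.41), Nkain4 (1.91), S100a6 (0.36) and Wnt4 (0.36). Against all other YS cells they were Col14a1 (-0.25 after thinning) and Actg2, a gene of the rule (5.99 once the Actg2 cells were left out). The last 2 settings, without the 2 cells and without the Actg2 cells, were added after seeing the data. Of the log2 ratios of single named genes recomputed, 1933 of 2080 against Actg2 cells, 2093 of 2465 against all other YS cells and 2265 of 2460 within the collagen-rich cells stayed within their interval, with 0, 2 and 14 turned. Shares are not in these totals. A ratio counted as turned only if it was at least 2-fold in the main setting and changed sign. Sign changes of smaller ratios are neither counted as turned nor listed, and ratios that could not be computed were left out. Depth limits the 16 other cells most: with 295202 UMIs in all, 3 UMIs there are 10.2 CPM. Intervals are wider where counts are few, so the totals within their interval do not rank the comparisons by stability.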
